A study of Mus musculus with 8 samples.

Results

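A set of 10 genes, most of them encoding structural proteins of the sperm tail, was followed in whole testes of Iqch mutant and wild-type mice. The set held Akap4, Akap3, Cabyr, Ropn1, Ropn1l, Spa17, Odf1, Odf2, Odf4 and Fscn3, chosen by name from a list of fibrous sheath and outer dense fibre genes. All 10 were found among the 17127 genes of the deposited table, and all 10 passed the minimum on low values that 17126 genes passed.

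Around the axoneme, the microtubule core of the tail, mammalian sperm build accessory structures late in spermatid development. Outer dense fibres run beside the microtubule doublets along the midpiece and principal piece and give the tail stiffness. The fibrous sheath surrounds them in the principal piece, where AKAP proteins hold protein kinase A and glycolytic enzymes near the motor. Ropporins, SPA17 and CABYR carry a docking domain like that of the regulatory subunit of protein kinase A and bind to these AKAPs.

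The samples were testes of 4-month-old males, with 4 wild-type and 3 mutant libraries, which the study describes as testes of separate mice. Mutants carried the genotype Iqch-/- and were homozygous for a small frameshifting deletion near the end of Iqch, made with CRISPR-Cas9 in B6CBAF1 zygotes, which predicts a shortened IQCH protein. The labels call them Iqch knockout and name no line, and the study shows the RNA-seq data as those of its Iqch mu7 line. Wild-type animals served as controls, mutants 1, 2 and 4 were used, and mutant 3 is not analysed here. The study left out 1 mutant sample as an outlier after normalization, and its main text does not say which. Values are counts per 1000000 reads (CPM), and the reads behind a library ranged from 32064384 to 37551057. For the 10 genes a single value rested on 5534 to 157858 reads. Errors after ± are SDs (n = 4 wild-type, n = 3 mutant). Fold changes are differences of log2(CPM + 0.1) between mutant and wild type, tested with limma and called at a false discovery rate (FDR) of 0.01 over all tested genes.

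Of the 10 genes, 9 were called lower in the mutant and 0 higher, where 50.4% of all tested genes were called, 14.2% as lower and 36.3% as higher. The log2 fold changes of all 10 were below 0. For the 10 the log2 fold changes had a median of -0.290, against 0.121 for all tested genes. Relative to the median of all genes, that of the 10 stood at -0.411. Dividing the CPM by median-of-ratios size factors moved the median of all genes to -0.013. All 10 were then called lower, where 25.1% of genes were called lower and 27% higher, and their median was -0.425. On the deposited CPM 6212 genes were called higher and 2428 lower, and after this scaling 4627 higher and 4294 lower. On the deposited CPM every mutant library lay below every wild-type library in 9 of the 10 genes, as in 19.5% of all tested genes. In 0 of the 10 it lay above, as in 42.8%. Iqch itself, the check of the labels, was at 192.6 to 216.6 CPM in wild-type and 64.8 to 69.2 CPM in mutant libraries.

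**Figure D1:**
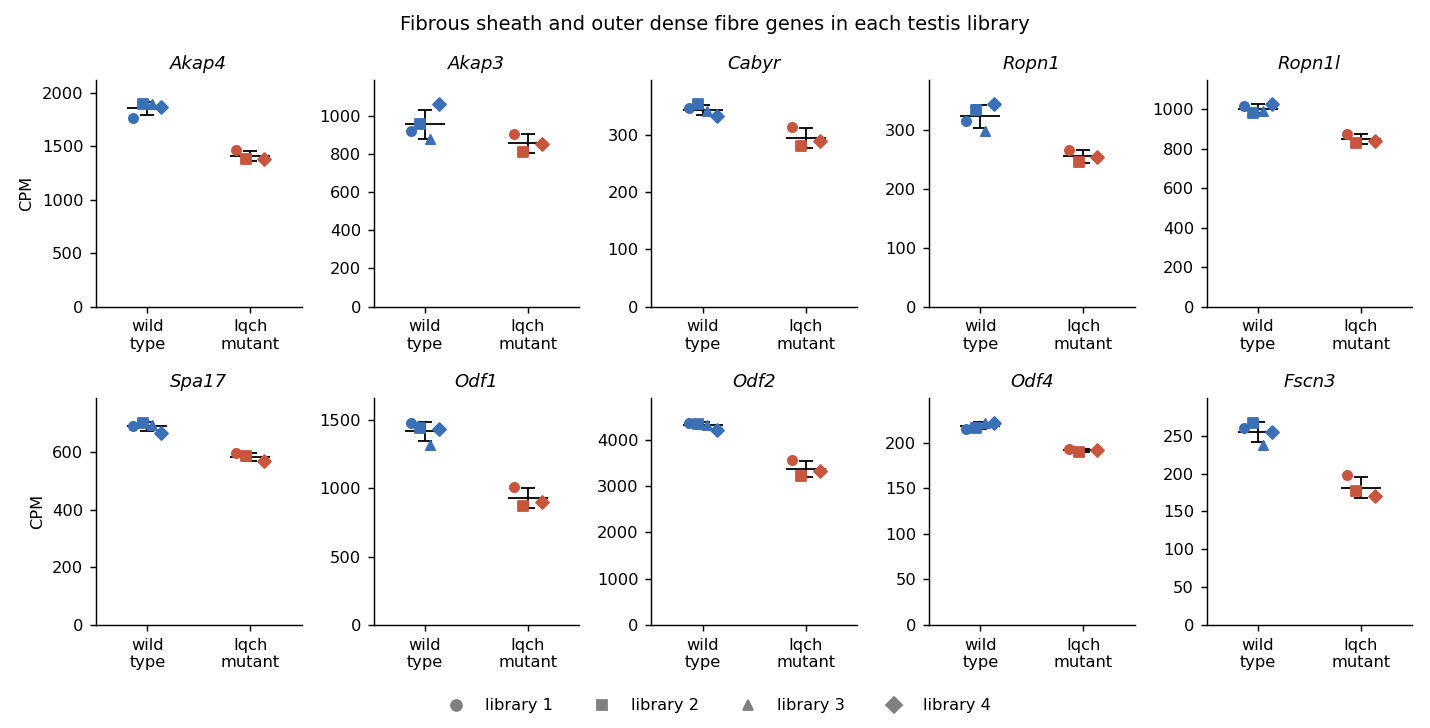
Deposited CPM (linear axes from 0) of each gene in each library, with blue points for 4 wild-type and red points for 3 Iqch mutant libraries, symbols for the library number, and black bars for the mean ± SD. The mutant points lie below all wild-type points in 9 panels, and in the Akap3 panel they overlap.

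The largest change among the 10 was that of Odf1, the major cysteine-rich protein of the outer dense fibres. The end of its protein is known for a run of repeated Cys-Gly-Pro units. In the canonical GENCODE transcript of Odf1, which has 248 coding codons, 6 in-frame codon triplets of this kind lay between codons 210 and 227, and the coding sequences of the other 9 genes held 0. A stretch with 3 of these 6 triplets is shown because the repeat marks Odf1 among the genes described here. It lies in a coding exon, on the plus strand at chr15:38226726-38226755 of GRCm39, codons 209 to 218, with the repeated triplets in capitals.
Odf1: cccTGCGGCCCTTGCGGCCCCTGTGGCCCC

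Odf1 (ENSMUSG00000061923, chromosome 15 from 38219447 to 38226979) was at 1479, 1439, 1314 and 1429 CPM in wild-type libraries 1 to 4 and at 1008, 870.4 and 900.6 CPM in mutants 1, 2 and 4. The lowest wild-type library stood above the highest mutant library. Its mean fell from 1415 ± 70.9 to 926.5 ± 72.6 CPM, a 34.5% lower level and a log2 fold change of -0.61 (limma FDR 9.3e-07, SE 0.05). Odf2, which encodes the other major fibre protein and also occurs at centrosomes of other cells, measured 4369, 4337, 4324 and 4204 CPM in wild-type testes and 3552, 3220 and 3325 CPM in mutants 1, 2 and 4. The wild-type libraries of Odf2 differed little from each other, with a coefficient of variation of 1.68%, against 5.04% among the mutants. Its log2 fold change was -0.36 (limma FDR 7.7e-06, SE 0.04). The study names Odf2 among the genes with several isoforms of altered expression in the mutant. The values here are per gene and do not separate isoforms. Odf4 encodes a membrane-associated protein of the outer dense fibre family. It measured 215, 216, 222.2 and 221.5 CPM in wild-type testes and 193.4, 190.1 and 192.1 CPM in mutants 1, 2 and 4. This was the smallest called change, 12.3%, with a log2 fold change of -0.19 (limma FDR 6.6e-04, SE 0.04), yet the groups did not overlap.

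AKAP4 is the most abundant protein of the fibrous sheath and AKAP3 its earlier assembled partner. Akap4 (X chromosome) measured 1771, 1898, 1898 and 1866 CPM in wild-type testes and 1465, 1382 and 1387 CPM in mutants 1, 2 and 4. All 3 mutant libraries were below all wild-type libraries, and the mean fell from 1858 ± 59.9 to 1411 ± 46.2 CPM. The log2 fold change of Akap4 was -0.40 (limma FDR 2.5e-06, SE 0.04). Akap3 measured 922.2, 958.4, 882.8 and 1064 CPM in wild-type testes and 907.9, 810.7 and 852.1 CPM in mutants 1, 2 and 4. On the deposited CPM the groups overlapped here, since mutant 1 stood above wild type 3. This depends on scaling, as the size factors were 0.961 for wild type 3 and 1.037 for mutant 1. Dividing by them raises the former and lowers the latter. Akap3 was the gene of the 10 that did not pass on the deposited CPM, with a log2 fold change of -0.16 (limma FDR 0.0351, SE 0.06, 95% interval -0.287 to -0.028). After scaling by size factors it was called, at -0.292 (limma FDR 0.00167, SE 0.065). Akap3 also had the widest spread among wild-type libraries, with a coefficient of variation of 8.16%.

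The genes of the docking proteins had log2 fold changes between -0.34 and -0.23. Ropn1 encodes ropporin, which binds AKAP3, and measured 314.9, 333.4, 297.9 and 343.6 CPM in wild-type testes and 265.9, 244.5 and 253.5 CPM in mutants 1, 2 and 4. Its log2 fold change was -0.34 (limma FDR 9.7e-05, SE 0.05). Ropn1l, its relative, also known as a radial spoke protein, measured 1016, 979.6, 989 and 1026 CPM in wild-type testes and 876.4, 830.4 and 839.5 CPM in mutants 1, 2 and 4. The change of Ropn1l was -0.24 (limma FDR 9.6e-05, SE 0.04). Neither gene had overlapping groups. Spa17, which encodes sperm autoantigenic protein 17, measured 693.6, 704.1, 696.8 and 669.2 CPM in wild-type testes and 596.6, 588.2 and 568.8 CPM in mutants 1, 2 and 4, a change of -0.24 (limma FDR 8.9e-05, SE 0.04). Cabyr, which encodes a calcium-binding protein phosphorylated on tyrosine during capacitation, measured 345.8, 353.6, 341.1 and 333.5 CPM in wild-type testes and 313.2, 280 and 288.4 CPM in mutants 1, 2 and 4. Its change was -0.23 (limma FDR 7.2e-04, SE 0.045). For Spa17 and Cabyr too the highest mutant stood below the lowest wild-type library.

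Exons of Cabyr share 1877 bp with Osbpl1a, a lipid-binding protein gene on the opposite strand, and whether the reads were counted by strand is not given in the sources used here. Osbpl1a fell from 124 ± 2.9 to 77.8 ± 5.75 CPM, which was -0.67 on the log2 scale (limma FDR 2.9e-07). Reads of the shared exons cannot be told apart without strand, so the value of Cabyr is uncertain to that extent. Exons of Spa17 share 400 bp with Siae and exons of Fscn3 share 58 bp with Gcc1, which were at 21.9 ± 0.465 and 40.3 ± 2.51 CPM in the wild type. Gm49208, an lncRNA that shares 231 bp with Ropn1l, was at 5.5 ± 0.518 CPM. Akap3, Odf2 and Spa17 overlap annotated noncoding genes that are not in the table. Akap3 shares 274 bp with Gm67036 and Spa17 shares 191 bp with Gm70233. Odf2 shares 715 bp with Gm75149 and 97 bp with Gm55846. Akap4, Ropn1, Odf1 and Odf4 share no exon with another annotated gene. No transcript of a non-overlapping gene matched the canonical transcript of any of the 10 over 100 bp at 90% identity. Their other transcripts were not searched.

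Fscn3 encodes a testis form of fascin, a protein that bundles actin filaments. It was on the list by name and is grouped here apart from the sheath, docking and fibre genes. It measured 259.7, 267.3, 237.1 and 255 CPM in wild-type testes and 197.6, 176.9 and 170 CPM in mutants 1, 2 and 4. The change was the largest after that of Odf1, with 28.8% less in the mutant and a log2 fold change of -0.49 (limma FDR 9.0e-06, SE 0.06).

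By exact permutation of the group labels, with 35 arrangements, each of the 9 called genes gave the smallest p-value the design allows, 0.0286 (two-sided, absolute differences). With the smaller tail doubled the smallest p is 0.0571, which these 9 genes also had. Akap3 gave an exact p of 0.1143 by both definitions. These tests used the deposited CPM and were not repeated after scaling by size factors.

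**Figure D2:**
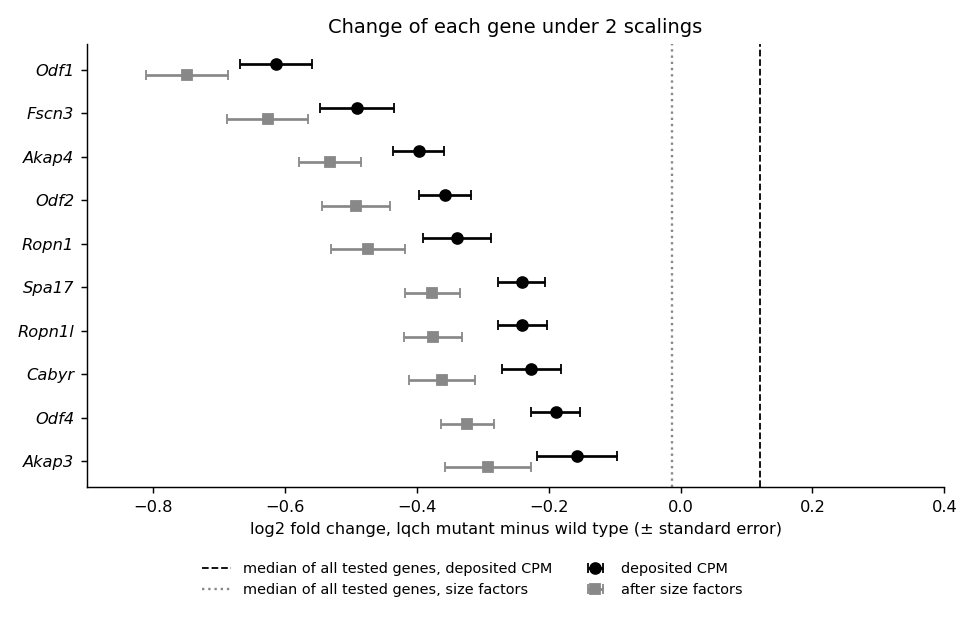
Log2 fold change (mutant minus wild type) of each gene, with bars for the limma standard error, on the deposited CPM (black circles) and after median-of-ratios size factors (grey squares). Dashed and dotted lines mark the medians of all tested genes at 0.121 and -0.013. The order of the genes is the same in both scalings, from Odf1 at -0.61 to Akap3 at -0.16 on the deposited CPM.

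Among mutants, library 1 had the highest CPM for 10 of the 10 genes. The summed CPM of the 10 was 9376 in mutant 1, 8593 in mutant 2 and 8777 in mutant 4, against 11200 to 11490 in the wild type. Summed over 16 spermatid markers, mutant 1 was also the highest of the mutants, at 15210 CPM against 14120 and 13150 CPM. No library took the same place among the wild-type samples, where each was highest for 2 or 3 of the genes. Leaving out mutant 1 left 9 genes called lower.

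Levels of different genes were ranked per length, as CPM per kilobase of the canonical transcript. In the wild type Odf1 (1281 ± 64.2) and Odf2 (1274 ± 21.4) were the highest, and their libraries overlapped. They were followed by Ropn1l (1048 ± 22.7), Akap4 (650.2 ± 20.9), Spa17 (408.3 ± 8.96) and Ropn1 (368.5 ± 23.1). The last were Akap3 (302.9 ± 24.7), Cabyr (250.9 ± 6.15), Odf4 (192.7 ± 3.28) and Fscn3 (134 ± 6.74). Apart from Odf1 and Odf2, no neighbours in this order overlapped. The level and place of Cabyr are uncertain because of the exons it shares with Osbpl1a. In the mutant Odf1 was at 838.4 and Odf2 at 995.4 CPM per kilobase, and Ropn1l at 886.9. The order depends on the length used. Over all annotated exons of a gene, which for the 90 transcripts of Odf2 cover 12847 bp, the wild-type mean of Odf2 was 335.4 CPM per kilobase, below Ropn1l and Akap4. On that length Ropn1 (188) stood below Akap3 (216.9), and Cabyr (109.7) and Odf4 (79.6) stood below Fscn3 (122.3).

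How far the genes changed unequally was asked with ratios within a library, which do not depend on how libraries are scaled. In 5 pairs with related roles, the CPM of one gene was divided by that of the other. The pairs were chosen with earlier results of these data known, and Odf1 is in more than 1 of them. Their p-values are therefore a description only. These ratios are not corrected for length and serve only to compare libraries. The ratio of Odf1 to Odf4 was 6.88, 6.66, 5.91 and 6.45 in wild-type libraries 1 to 4 and 5.21, 4.58 and 4.69 in mutants 1, 2 and 4. On the log2 scale this ratio differed by -0.424 (exact permutation p = 0.0286, 0.0952 after Benjamini-Hochberg adjustment over the 5 pairs). The ratio of Odf1 to Odf2 was 0.338, 0.332, 0.304 and 0.34 in the wild type and 0.284, 0.27 and 0.271 in the mutants, a log2 difference of -0.255 (exact permutation p = 0.0571, adjusted 0.0952). The ratio of Akap4 to Akap3 was 1.92, 1.98, 2.15 and 1.75 in the wild type and 1.61, 1.71 and 1.63 in the mutants, a log2 difference of -0.239 (exact permutation p = 0.0571, adjusted 0.0952). In these 3 pairs the mutant and wild-type ratios did not overlap, but none passed 0.05 after adjustment. The share of all gene pairs that separate the groups was not computed, so this count does not set these pairs apart. With 35 arrangements the smallest exact permutation p is 0.0286, so a single separated pair could not pass after this adjustment. Ropn1 to Ropn1l differed by -0.099 (exact permutation p = 0.2, adjusted 0.25) and Cabyr to Spa17 by 0.015 (exact permutation p = 0.6857, adjusted 0.6857), and in both the ratios of the groups overlapped. Without mutant 1 the ratio of Cabyr to Spa17 differed by -0.017, and without mutant 2 by 0.054. Exons shared with Osbpl1a leave the Cabyr side of this ratio uncertain.

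**Figure D3:**
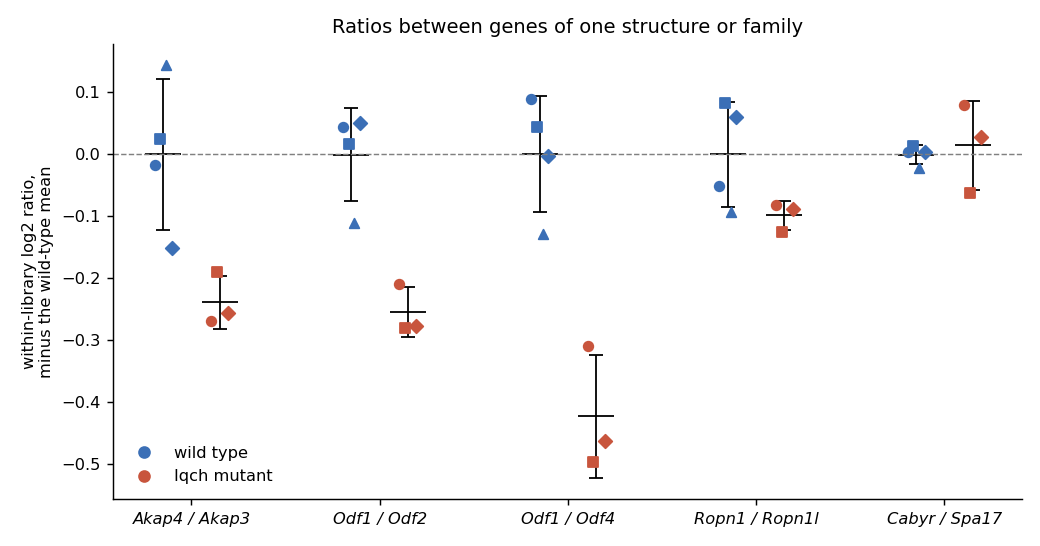
Within-library log2 ratio of 5 pairs of genes, minus the mean of the wild-type libraries (vertical axis), for wild-type (blue) and Iqch mutant (red) libraries, with symbols for the library number as in the plot of CPM by library and bars for mean ± SD. The red points lie below the blue points for Akap4 / Akap3, Odf1 / Odf2 and Odf1 / Odf4 and overlap them for the other pairs.

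Other genes of the same structures were counted from a list of 17, of which 16 were tested and 1, Cimap1d, was not in the table. Of the 16, 7 were called lower and 0 higher, and after scaling by size factors 10 lower and 0 higher. Their median log2 fold change was -0.182. Oaz3, which encodes a testis form of antizyme, fell most, from 1283 ± 28.1 to 825.4 ± 52.6 CPM, a difference of -0.64 on the log2 scale (limma FDR 1.1e-07, SE 0.04). Gapdhs, the glycolytic enzyme anchored in the fibrous sheath, fell by 0.42 on the log2 scale, from 1561 ± 55.4 to 1165 ± 77.4 CPM (limma FDR 7.5e-06). The genes called beside these were Tcp11, Crisp2, Tssk4, Ldhc and Qrich2, with log2 fold changes of -0.38, -0.39, -0.30, -0.27 and -0.27. Fsip1 and Fsip2, which encode fibrous sheath interacting proteins, were not called, at 0.01 (limma FDR 0.916, SE 0.08) and 0.02 (limma FDR 0.844, SE 0.07). The highest value was that of Odf2l, a relative of Odf2, at 0.14 and not called (limma FDR 0.0496).

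Of the 7 genes of the neighbouring annulus and mitochondrial sheath, 5 were called lower and 0 higher on the deposited CPM, and 7 lower after scaling by size factors. Smcp, the cysteine-rich protein of the mitochondrial capsule, had the lowest value, with 1667 ± 60.7 CPM in the wild type and 1041 ± 62.9 CPM in the mutant, a log2 fold change of -0.68 (limma FDR 9.0e-08, SE 0.05). The smallest was that of Slc26a8, an anion transporter of the annulus, at -0.14 and not called (limma FDR 0.0101).

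The 6 subunits of protein kinase A, the enzyme that the AKAPs hold, did not move one way. Prkar2a, the regulatory subunit RII alpha, fell from 266.7 ± 6.94 to 200.4 ± 16 CPM, a difference of -0.41 on the log2 scale (limma FDR 1.6e-05, SE 0.05). Prkacb, a catalytic subunit, rose from 12.9 ± 0.856 to 24.7 ± 2.21 CPM, by 0.94 (limma FDR 8.4e-07, SE 0.08). Prkar1a was called higher on the deposited CPM, at 0.24 (limma FDR 8.8e-04, SE 0.05), and not after scaling by size factors, at 0.10 (limma FDR 0.0976). The remaining 3 were not called.

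**Figure D4:**
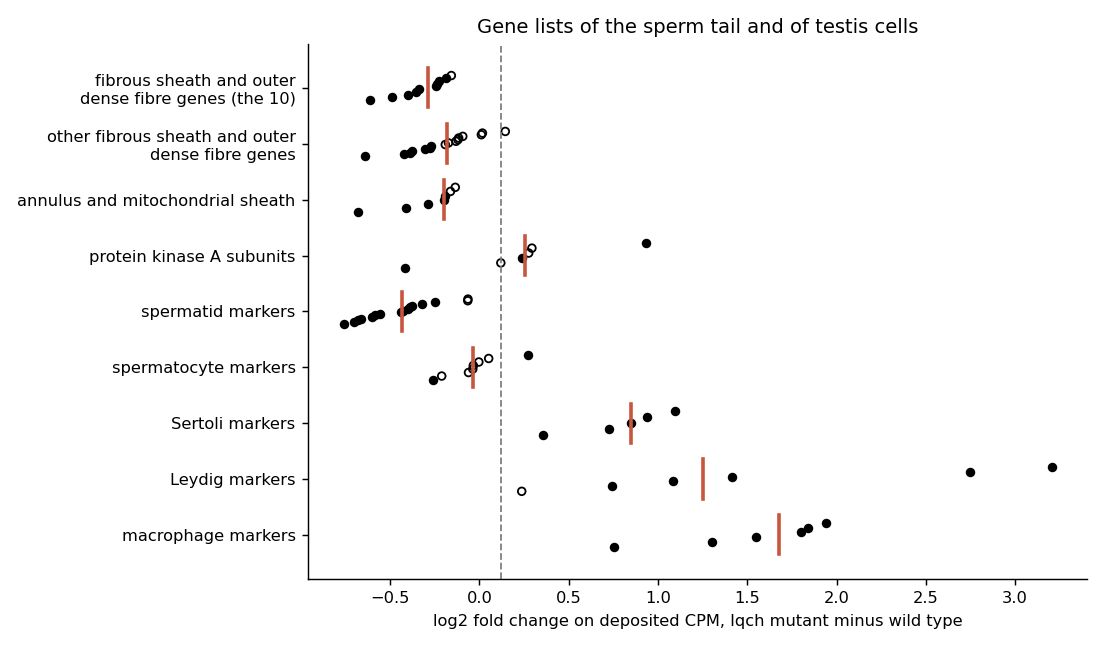
Log2 fold change on the deposited CPM (horizontal axis) of each tested gene in 9 lists, with filled points for genes called at an FDR of 0.01, open points for the rest, red bars for the median of each list and a dashed line for the median of all tested genes. The 10 listed genes, Fscn3 among them, lie between -0.61 and -0.16, the spermatid markers between -0.76 and -0.06, and the Sertoli, Leydig and macrophage markers above 0.

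The genes described are known to be transcribed in spermatids, and the testes held other cells beside them. Of 16 spermatid markers, a list the study named on these samples, taken here without Akap4, 14 were called lower, with a median log2 fold change of -0.434 and a summed level of 20600 to 21900 CPM in the wild type and 13150 to 15210 CPM in the mutant. Of 8 spermatocyte markers 1 was called lower and 1 higher, with sums of 1453 to 1545 and 1366 to 1482 CPM, and after scaling by size factors 3 were called lower and 0 higher. All 5 tested of 6 Sertoli markers were called higher, with sums of 960.9 to 1042 and 2027 to 2155 CPM, and Sox9 was not called after scaling by size factors. Of 6 Leydig markers 5 were called higher, with sums of 996.6 to 1202 and 4214 to 4393 CPM. Much of the Leydig sum was Insl3, at 438.1 ± 15.7 CPM in the wild type and 2941 ± 37.6 CPM in the mutant. Star was not called. Of 6 macrophage markers 6 were called higher, with sums of 57 to 63.2 and 140 to 159.9 CPM. None of these tested markers was at 0 in any library. The part of the cell mixture in the change of the 10 genes was not tested, and in whole testes fewer cells of a type and less RNA per cell cannot be told apart.

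As a description without a test, each gene was also set against the mean log2 level of the 16 spermatid markers in the same library, which was lower in the mutant by -0.455. On this measure 8 of the 10 genes were higher in the mutant and 2 lower, and for 6 of the 8 and 1 of the 2 the groups did not overlap. Any gene that fell less than the marker mean is higher here, and all tested genes had a median of 0.121 on the deposited CPM. The share of all genes that were higher or did not overlap on this measure was not computed, so these counts do not set the 10 apart. Akap3 stood at 1.397, 1.402, 1.382 and 1.577 above the markers in the wild type and at 1.744, 1.683 and 1.786 in the mutants, a difference of 0.298. Odf4 differed by 0.267, Cabyr by 0.229, Ropn1l by 0.215, Spa17 by 0.214 and Ropn1 by 0.116, without overlap. Akap4 and Odf2, at 0.058 and 0.098, overlapped between the groups, as did Fscn3, at -0.036. Odf1 was the gene whose mutant libraries all lay below all wild-type libraries on this measure. It stood at 2.078, 1.989, 1.956 and 2.002 in the wild type and 1.896, 1.785 and 1.865 in the mutants, a difference of -0.157. This is relative to the mean of the markers only. Their own log2 fold changes on the deposited CPM ran from -0.76 to -0.06, a range that holds the -0.61 of Odf1.

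**Figure D5:**
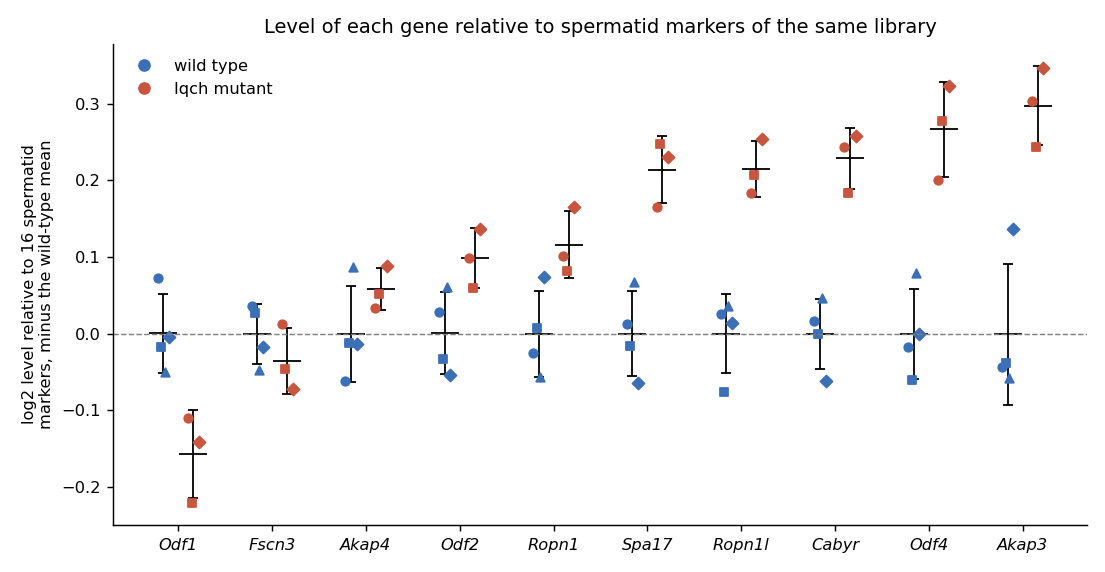
Log2 level of each gene relative to the mean of 16 spermatid markers in the same library, minus the wild-type mean (vertical axis), for wild-type (blue) and Iqch mutant (red) libraries, with symbols for the library number and bars for mean ± SD. The mutants lie below the wild type for Odf1, at -0.157, and above it without overlap for 6 genes, with the largest difference for Akap3, at 0.298. The marker mean itself differed by -0.455, so a gene that fell less than it lies higher here.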

How the data were processed

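RNA-seq was performed by the authors on whole testes. Per the paper's methods, reads were trimmed with Trimmomatic, mapped to GRCm39 with Subread and counted per gene with featureCounts, and genes with too few reads were removed. The annotation release and strand setting are not given in the sources used here. The authors deposited CPM values, which sum to 1000000 in each library over 17127 genes. All values (100%) were whole multiples of 1 step per library, within 0.01 of a step, which gave the reads of a library.

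Differences were tested in R 4.3.3 by the moderated, trended variance model of limma 3.58.1, fitted to log2(CPM + 0.1) of 17126 genes that reached 2.2 CPM in 2 libraries of either group, with Benjamini-Hochberg adjustment over all of them. The small pseudocount understates changes of low genes. The fit was tested on simulated data. Single values used an exact permutation test over 35 splits. Replicate libraries differed by more than sampling noise. Exons, transcripts and coordinates were taken from GENCODE M39 (GRCm39). Similar transcripts were sought with BLAST. Other computations used Python 3.11.15, pandas 2.3.3 and matplotlib 3.10.9.

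Named were all 10 genes, and from each further list of structural genes its highest and lowest value and its defining genes. Tcp11, Crisp2, Tssk4, Ldhc, Qrich2, Prkar1a, Sox9, Insl3, Star and the overlapping genes were named after their values were seen. The members, lists and pairs were chosen with earlier results of these data known, and the comparison with the mean of spermatid markers after the values were seen. Alternatives were other pseudocounts, minima and scalings, the replicate number as a block and each library left out in turn.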

Additional observations from a re-analysis of the deposited data

How the results depend on the processing

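With a pseudocount of 1 or 0.01, a minimum of 5 CPM or none, the replicate number as a block, or any 1 library left out, 9 of the 10 genes were called lower and 0 higher, and no gene turned its direction. The exception to that count was the scaling: Akap3 was called at -0.292 (limma FDR 0.00167) with size factors and at -0.279 (limma FDR 0.002) with TMM factors, the median of the 10 was -0.425 and -0.412, and 4294 and 4107 of all tested genes were called lower against 2428. These factors differ between the groups, which moved the median of all genes by -0.1338 and -0.1204 (log2). With each library left out in turn, Odf1 ranged from -0.675 to -0.569, Akap4 from -0.424 to -0.382 and Akap3 from -0.2 to -0.105, and over all alternatives the limma FDR of Akap3 ran from 0.00167 to 0.147. The ratio of Cabyr to Spa17 ran from -0.017 to 0.054. Ratios with a library left out were not tested, since fewer libraries allow no exact p under 0.05. Libraries with the same number did not deviate together (r across genes 0.026, 0.009 and -0.098, and mutants 2 and 4 correlated best with wild types of another number). With the replicate block 7722 of all tested genes were called against 8640, and Akap3 stood at -0.195 (limma FDR 0.0118). Count models on reads recovered from the CPM, planned as alternatives, were not run.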

Other observations

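A window from 250 bases before to 50 after the start of each canonical transcript (GRCm39) was searched on both strands for the cAMP response element TGACGTCA, the site of CREM, a regulator of spermatid genes, and for TGACGT, which is contained in it. The full element was in the window of 0 of the 10 genes, and in 2.8% of 17044 windows of genes in the table. The shorter motif was in 1 of the 10, Cabyr, and in 9.93% of all windows. For the shorter motif, 1 of 10 is close to the share of all windows. These counts say only whether the letters were found in these windows.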
